A study of Mus musculus with 25 samples.

Results

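The Sox genes encode transcription factors that bind DNA through an HMG box, a domain shared with the testis-determining factor Sry. The 10 genes described here were found by their symbols in the peak lists of H3K27me3, trimethylated lysine 27 of histone H3, from regenerating mouse myofibers. They are Sox1 and Sox2 of the SOXB1 group, Sox14 and Sox21 of SOXB2, Sox8, Sox9 and Sox10 of SOXE, and Sox7, Sox17 and Sox18 of SOXF. Of the 10 genes, 8 had at least 1 H3K27me3 peak, and they held 137 of the 34244 peaks in the 12 lists, in which 6092 genes had a peak. Sox2 and Sox10 had none.

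Proteins of one SOX group bind similar sites and often stand in for each other. SOXB1 proteins keep neural progenitors undifferentiated and SOXB2 proteins act mainly as repressors during neuronal differentiation, SOXE proteins specify neural crest, glia, cartilage and testis, and SOXF proteins act in endothelium and, for Sox17, in endoderm. H3K27me3 is placed by Polycomb repressive complex 2, whose catalytic subunit is EZH2 or EZH1, and it lies over many CpG-rich developmental regulators in cells that do not express them.

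Myofibers dissected from tibialis anterior 14 days post injury (dpi) were analyzed in 4 genotypes, wild-type, mfn2-/-, vhl-/- and HIF1dPA, with 3 H3K27me3 libraries each. All groups, wild-type included, carried a mito-Dendra2 reporter and the muscle stem cell driver Pax7-Cre(ERT2), received tamoxifen (75 mg/kg daily for 5 days) and were injured 2 days later with 50 µL of 1.2% BaCl2. In mfn2-/- animals floxed Mfn2, a mitochondrial fusion protein, was deleted, in vhl-/- animals floxed Vhl, which marks HIF1α for degradation, and HIF1dPA animals expressed a HIF1α that VHL does not recognise. The mice were adult, and neither sex nor exact age is given in the labels. Recombination started in muscle stem cells, so nuclei of fibers that survived the injury and of other cell types in the dissected fibers could keep the unrecombined alleles.

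Each list gave the peaks called in 1 library with a score, 10 times the negative log10 of the caller's p-value, that started at 50. The lists held 3433 to 3776 peaks in wild-type, 3358 to 3679 in mfn2-/-, 3636 to 4035 in vhl-/- and 482 to 501 in HIF1dPA. The lists give no read totals, so depth is unknown. A gene without a peak is a gene at which none was called, and a smaller share of nuclei with the mark cannot be told apart from less mark per nucleus. No peak was assigned to any of 9 myofiber genes (such as Acta1, Ckm and Ttn). Of markers of other cells, a peak was found in some list for Pax7 and Myf5 of 3 stem cell genes, Tek of 5 endothelial genes, Ptprc of 4 macrophage genes and Pdgfra of 3 fibro-adipogenic genes. Peaks do not measure expression, and the part of other cell types in the values below was not tested.

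The sequences just before the start sites of Sox1, Sox2, Sox14 and Sox21 are shown because CpG content is a known feature of H3K27me3 targets and these 4 genes differed in whether they carried peaks. Each is the 250 bases upstream of the RefSeq start, read 5′ to 3′ on the gene's strand in GRCm38.p6, the assembly that mm10 names. Capitals mark CG dinucleotides. Sox1 lies on the plus strand (chr8:12395269-12395518), Sox2 on the plus strand (chr3:34649745-34649994), Sox14 on the minus strand (chr9:99876171-99876420) and Sox21 on the minus strand (chr14:118237031-118237280).
Sox1: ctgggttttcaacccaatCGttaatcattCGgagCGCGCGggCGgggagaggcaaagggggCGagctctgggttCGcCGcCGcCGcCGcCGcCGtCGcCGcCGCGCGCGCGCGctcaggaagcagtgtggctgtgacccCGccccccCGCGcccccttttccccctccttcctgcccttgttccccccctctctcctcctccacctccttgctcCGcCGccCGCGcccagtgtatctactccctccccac
Sox2: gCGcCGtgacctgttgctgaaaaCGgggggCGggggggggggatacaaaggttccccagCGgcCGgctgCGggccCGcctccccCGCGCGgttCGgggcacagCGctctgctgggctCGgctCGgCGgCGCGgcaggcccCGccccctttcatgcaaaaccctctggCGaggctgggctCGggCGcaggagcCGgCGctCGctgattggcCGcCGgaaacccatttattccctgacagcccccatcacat
Sox14: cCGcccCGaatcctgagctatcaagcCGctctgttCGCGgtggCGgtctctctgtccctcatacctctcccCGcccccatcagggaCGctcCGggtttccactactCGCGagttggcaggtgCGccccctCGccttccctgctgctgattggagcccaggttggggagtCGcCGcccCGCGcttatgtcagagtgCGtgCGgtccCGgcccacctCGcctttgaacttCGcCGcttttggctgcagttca
Sox21: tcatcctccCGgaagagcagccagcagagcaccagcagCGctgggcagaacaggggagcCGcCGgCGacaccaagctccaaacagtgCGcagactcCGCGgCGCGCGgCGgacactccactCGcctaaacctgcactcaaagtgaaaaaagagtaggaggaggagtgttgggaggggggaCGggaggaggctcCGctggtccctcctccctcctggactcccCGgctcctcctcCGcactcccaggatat

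The window held 29 CG dinucleotides at Sox1, 27 at Sox2, 23 at Sox14, 18 at Sox8 and 17 at Sox21. The median was 6 over 32851 promoters and 13 over the promoters of 359 genes with a peak in all 9 wild-type, mfn2-/- and vhl-/- lists. Thus Sox2, with no peak in any list, was nearly as rich in CG as Sox1. Of the SOX-type motifs searched on both strands, ACAATG was in none of the 5 windows and ACAAAG was in the Sox2 window once, compared with 10.7% and 16.5% of all promoters of that length. Peaks covered part of the Sox21 window in 7 lists (2 wild-type, 3 mfn2-/- and 2 vhl-/-), of the Sox14 window in 3, of the Sox1 window in 1 and of the Sox2 and Sox8 windows in 0. RefSeq promoters were found for 5 of the 10 genes.

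Sox1, Sox14, Sox17 and Sox21 carried nearly all of the peaks. Sox21 had a peak in 11 of the 12 lists, Sox14 and Sox1 in 10 and Sox17 in 9, whereas Sox7 had a peak in 2 lists and Sox8, Sox9 and Sox18 in 1 each. These 4 genes had a peak in every wild-type, mfn2-/- and vhl-/- list, which held for 6.02% of the genes with a peak in any list. In HIF1dPA lists, Sox21 had a peak in 2, Sox1 and Sox14 in 1 and Sox17 in 0. A peak in all 3 HIF1dPA lists was found for 0.772% of genes and for none of the 10.

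**Figure D1:**
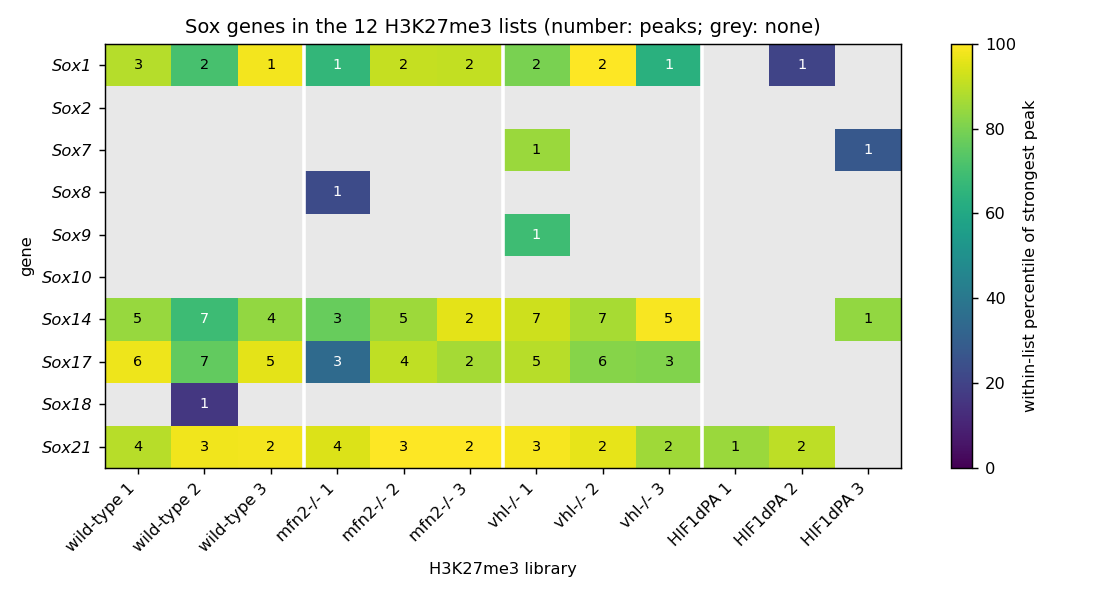
Grid of the 10 Sox genes against the 12 H3K27me3 libraries, with the color giving the within-list percentile of the gene's strongest peak by score, the number its peaks and grey no peak. Sox1, Sox14, Sox17 and Sox21 fill the 9 wild-type, mfn2-/- and vhl-/- columns, while Sox2 and Sox10 are grey throughout.

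Most of the scattered single peaks were weak. In SOXE, the only Sox8 peak was 547 bp wide with a score of 53.4, in mfn2-/- replicate 1, and lay in the promoter class (chr17:25569327-25569873). Sox9, a regulator of cartilage and testis, had a 1040 bp peak with a score of 84.6 over its 3′ UTR in vhl-/- replicate 1 (chr11:112785993-112787032). A peak 969 bp from Sox9 in wild-type replicate 3 and another 1378 bp away in mfn2-/- replicate 2 were assigned by the authors to a neighboring transcript, BC006965. Sox10, which specifies Schwann cells and melanocytes, had no peak closer than 111912 bp.

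In SOXF, Sox7 had a 1595 bp promoter peak with a score of 118.69 in vhl-/- replicate 1, the 592nd strongest of that list (chr14:63945566-63947160), and a 554 bp peak with a score of 52.8 at its 3′ UTR in HIF1dPA replicate 3. The single Sox18 peak, in wild-type replicate 2, was 738 bp wide with a score of 52.4. Both genes act in vessel formation, and in neither did replicates of 1 genotype share a peak. In SOXB1, the nearest peak to Sox2, a pluripotency and neural progenitor factor, was 157674 bp away. These 6 genes did not reach the 3 lists needed for a test, which 2394 genes (39.3%) did.

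The 4 recurrent genes differed in where the peaks lay. All 17 Sox1 peaks overlapped the gene, and 9 lists shared bases near its end (chr8:12399340-12399451). The 46 Sox14 peaks formed a domain reaching to both sides of a short gene, with 8 overlapping it and 27 in the distal intergenic class. The bases most often shared, by 8 lists, lay 5933 bp on the low-coordinate side of Sox14, which is its downstream side (chr9:99868046-99868173). Of the 41 Sox17 peaks, 19 overlapped the gene, and 7 lists shared bases 2009 bp from it on the high-coordinate side (chr1:4499435-4499611). Of the 28 Sox21 peaks, 9 overlapped the gene and the others lay downstream, where 9 lists shared a stretch 1499 bp from the gene (chr14:118231445-118231734) and another 293 bp away (chr14:118232699-118232940).

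Peak borders varied between libraries. Of the bases covered in any list, 67.7% at Sox1 were covered in a single list, compared with 35.5% at Sox17, 31.8% at Sox21 and 26.3% at Sox14. A 5111 bp peak of vhl-/- replicate 2 set the Sox1 share, which was 28.4% without that library. Among the 3 wild-type lists, the share of covered bases found in all 3 was 28.4% at Sox1, 21.7% at Sox21, 10.3% at Sox14 and 7.36% at Sox17. Sox21 peaks had the largest median width of the 4 genes, 1146 bp, compared with 933 bp at Sox1, 870 bp at Sox14 and 844 bp at Sox17.

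**Figure D2:**
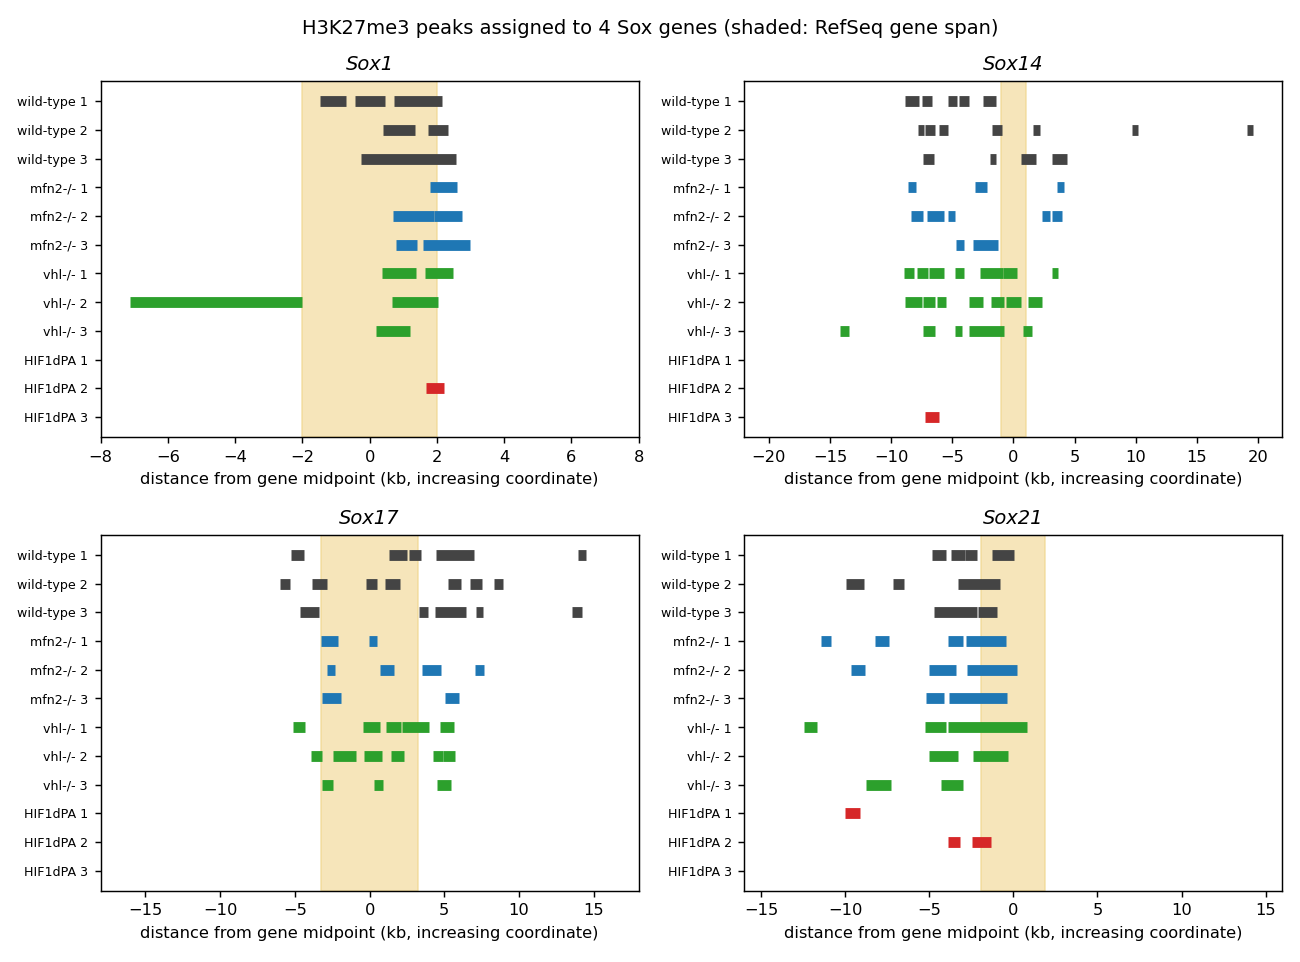
Positions of the H3K27me3 peaks assigned to Sox1, Sox14, Sox17 and Sox21 in each of the 12 libraries, as distance in kb from the midpoint of the gene, with the RefSeq gene span shaded. Sox21 peaks lie over the gene's low-coordinate end and beyond it, Sox14 peaks spread to both sides of the gene, and 2 Sox17 peaks 39702 and 60272 bp away on the low-coordinate side fall outside the axis.

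Peak assignment split 2 of these loci. Around Sox1, 50 peaks within 10 kb of the gene were assigned to the overlapping transcript Sox1ot and 17 to Sox1. Around Sox21, 18 peaks were assigned to Gm4675 and 28 to Sox21, and the peaks over the Sox21 start site were among those given to Gm4675. Counted over every peak within 10 kb, all 12 libraries had one at Sox1, and 11 at Sox21.

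The covered length, the base pairs in peaks assigned to a gene, was next compared between genotypes for the SOXB2 genes. Sox14, a factor of spinal cord and midbrain interneurons, had 4620, 4529 and 3763 bp in the wild-type lists and 2348, 4388 and 2762 bp in mfn2-/-. It had 7108, 7696 and 5792 bp in vhl-/- and 0, 0 and 1090 bp in HIF1dPA. All vhl-/- lists lay above all wild-type lists and all HIF1dPA lists below, whereas mfn2-/- overlapped wild-type. Wild-type averaged 4304 ± 471 bp and mfn2-/- 3166 ± 1078 bp, while vhl-/- averaged 6865 ± 975 bp and HIF1dPA 363 ± 629 bp (SD, n = 3 each).

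Sox14 differed across the 4 genotypes (exact permutation test over 12 libraries, p = 0.00013, Benjamini-Hochberg adjusted p = 0.0415), as did 1.84% of the 2394 genes tested. It was the 1 Sox gene called of the 4 tested, and its p was the 5th smallest of all. In the same exact permutation test the call was lost when any single HIF1dPA library was left out (adjusted p 0.0615 to 0.0765), without mfn2-/- replicate 1 (adjusted p 0.0545), and among wild-type, mfn2-/- and vhl-/- alone (unadjusted p = 0.00714, adjusted p = 0.219). None of the genes tested was called in any of these fits, so these losses were not particular to Sox14. The Sox14 call was also lost with a score of at least 100 (adjusted p = 0.0739), the 482 strongest peaks of each library (0.610), the within-list percentile (0.159) or presence (0.426) in place of length, a filter of at least 1 list (0.105) and permutation within replicate numbers (0.179). In the permutation within replicate numbers, Sox14 had p = 0.00174, the smallest that test can give, and 0 of 2394 genes were called. That test therefore could not call Sox14.

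Sox21, a repressor of neural progenitor genes that is also needed in hair follicles, had 3623, 4185 and 3726 bp in wild-type and 4709, 5408 and 4528 bp in mfn2-/-. It had 6713, 3893 and 2751 bp in vhl-/- and 877, 1869 and 0 bp in HIF1dPA. All mfn2-/- lists thus lay above wild-type and all HIF1dPA lists below, and the vhl-/- lists lay on both sides. Sox21 did not pass the test across genotypes (exact permutation p = 0.0129, adjusted p = 0.0734), although an unadjusted p under 0.05 was found for 33.2% of genes. Leaving out each library in turn gave Sox21 an adjusted p from 0.0411 to 0.186 in this test. It was under 0.05 only without vhl-/- replicate 1. Of the other settings, only the filter of at least 6 lists gave an adjusted p under 0.05 (0.0486). The adjusted p was 0.137 with a score of at least 100, 0.327 for promoter peaks only and 0.539 with the strongest peaks.

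The strongest Sox21 peak was among the highest in most lists. Ordered by score from 1, it stood at 399, 71 and 55 in wild-type, 180, 13 and 15 in mfn2-/- and 52, 154 and 526 in vhl-/-. In HIF1dPA it stood at 74 and 50 in the shorter lists of replicates 1 and 2, and it was not in the list of replicate 3. In mfn2-/- replicates 1, 2 and 3, the peak over the 3′ part of the gene was 2374, 2983 and 3461 bp wide. Such a peak was 1352, 2485 and 1154 bp wide in wild-type replicates 1, 2 and 3. It was 4663 and 2137 bp wide in vhl-/- replicates 1 and 2 and 1137 bp in HIF1dPA replicate 2. Neither vhl-/- replicate 3 nor HIF1dPA replicates 1 and 3 had a peak assigned to Sox21 there. With every peak within 10 kb counted, Sox21 had 6297, 7501 and 5229 bp in wild-type and 7871, 7767 and 7470 bp in mfn2-/-. The wild-type and mfn2-/- lists then overlapped.

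In SOXF, Sox17 had 6514, 5629 and 5112 bp in wild-type and 2274, 3302 and 2254 bp in mfn2-/-. It had 5605, 5866 and 2271 bp in vhl-/-, and no peak in any HIF1dPA list. The mfn2-/- lists all lay below the wild-type lists, and vhl-/- replicate 3 was as low as mfn2-/- while the other 2 vhl-/- lists lay within the wild-type range. Wild-type averaged 5752 ± 709 bp, mfn2-/- 2610 ± 599 bp and vhl-/- 4581 ± 2004 bp. The test across genotypes gave an adjusted p of 0.0549 (exact permutation p = 0.00156), which misses the threshold. In the same test, leaving out each library in turn gave an adjusted p from 0.0339 to 0.120. It passed only without vhl-/- replicate 3. Of the other settings, only the filter of at least 6 lists passed (adjusted p 0.0231). The adjusted p was 0.155 for promoter peaks only, 0.278 with a score of at least 100 and 0.414 with the strongest peaks.

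Sox17 was the 1 gene of the 4 with an unadjusted p under 0.05 for wild-type against the 9 mutant libraries (exact two-sided permutation p = 0.0273, adjusted p = 0.497), which 9.15% of genes reached. No Sox gene reached it when any wild-type or HIF1dPA library, mfn2-/- replicate 1 or 3, or vhl-/- replicate 3 was left out, and 2 did without vhl-/- replicate 2. After adjustment 0% of genes passed this test. The places of the Sox17 peaks varied within genotypes. Of the covered bases, 7.36% in wild-type and 9.16% in mfn2-/- were in all 3 lists of the genotype. The 3 wild-type lists shared 870 bp on the high-coordinate side of the gene (chr1:4499435-4500304), where 1 mfn2-/- list had a peak, whereas the 3 mfn2-/- lists shared 565 bp within it (chr1:4491298-4491862). Peaks of vhl-/- replicates 2 and 3 also covered part of that 565 bp stretch. A difference in place between genotypes was not tested.

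In SOXB1, Sox1, a marker of the neural plate, had 3101, 1514 and 2801 bp in wild-type and 784, 2053 and 2038 bp in mfn2-/-. It had 1861, 6496 and 1015 bp in vhl-/- and 0, 550 and 0 bp in HIF1dPA. Only HIF1dPA was separate from wild-type, and vhl-/- replicate 2 stood far above all other lists. That library had a 5111 bp peak with a score of 580.28, the 4th strongest of its list, that ended 8 bp inside the gene (chr8:12390416-12395526). With every peak within 10 kb counted, whichever transcript it was assigned to, vhl-/- replicate 2 no longer stood apart, at 10032 bp compared with 10174 and 6268 bp in the other vhl-/- lists. By assigned peaks Sox1 gave an adjusted p of 0.306 across genotypes (exact permutation p = 0.178), and with the wider count 0.0688.

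**Figure D3:**
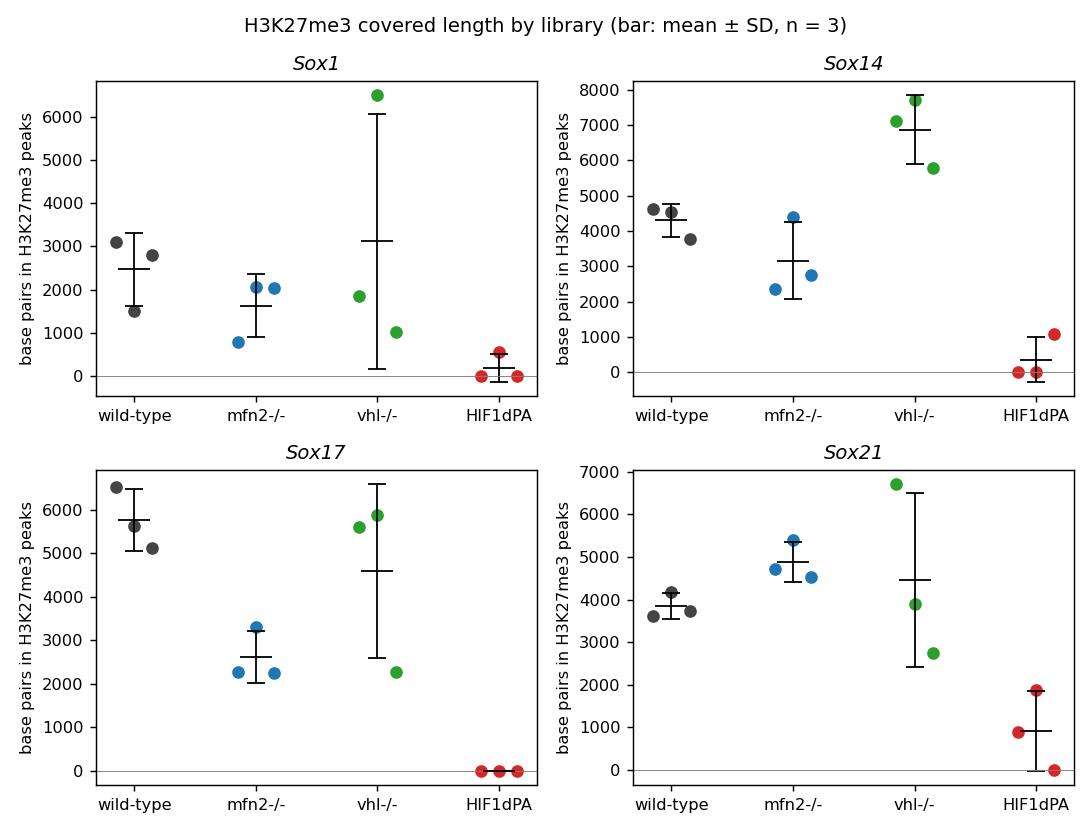
Base pairs in H3K27me3 peaks assigned to Sox1, Sox14, Sox17 and Sox21, with a point for each library and bars for the mean ± SD of 3 libraries per genotype. All vhl-/- points of Sox14 lie above wild-type, all mfn2-/- points of Sox17 below it and all mfn2-/- points of Sox21 above it.

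Each mutant genotype was then set against wild-type, reading each count against all genes tested. With 3 libraries against 3 the smallest p is 0.1, so these are descriptions. In mfn2-/-, Sox17 lay below wild-type without overlap, with a mean difference of -3142 bp, and Sox21 above it, by 1037 bp. Of all genes, 10.1% were lower and 9.61% higher without overlap, and the median difference was -238 bp. Most of the higher genes lay on sex chromosomes, and of 2184 autosomal genes 11.1% were lower and 1.42% higher. The Sox17 difference was at the 0.627th percentile of all genes. That percentile is of base pairs, without allowance for covered length, and the wild-type covered length of Sox17 was at the 96.8th.

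In vhl-/-, Sox14 lay above wild-type without overlap, by 2561 bp, at the 97.6th percentile, and none of the 4 genes lay below. The wild-type covered length of Sox14 was at the 94.6th percentile. Of all genes 6.22% were higher and 2.42% lower without overlap, and the median difference was 63.0 bp. In HIF1dPA, all 4 genes lay below wild-type without overlap, with mean differences of -2289 bp for Sox1, -2929 bp for Sox21, -3941 bp for Sox14 and -5752 bp for Sox17. Of all genes 28.9% were lower and 0.125% higher, and the median was -529 bp. Of the 1009 genes with a peak in at least 6 lists, as the 4 Sox genes had, 60.7% were lower. In wild-type covered length the 4 Sox genes stood between the 87.9th and 96.8th percentile of all genes.

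**Figure D4:**
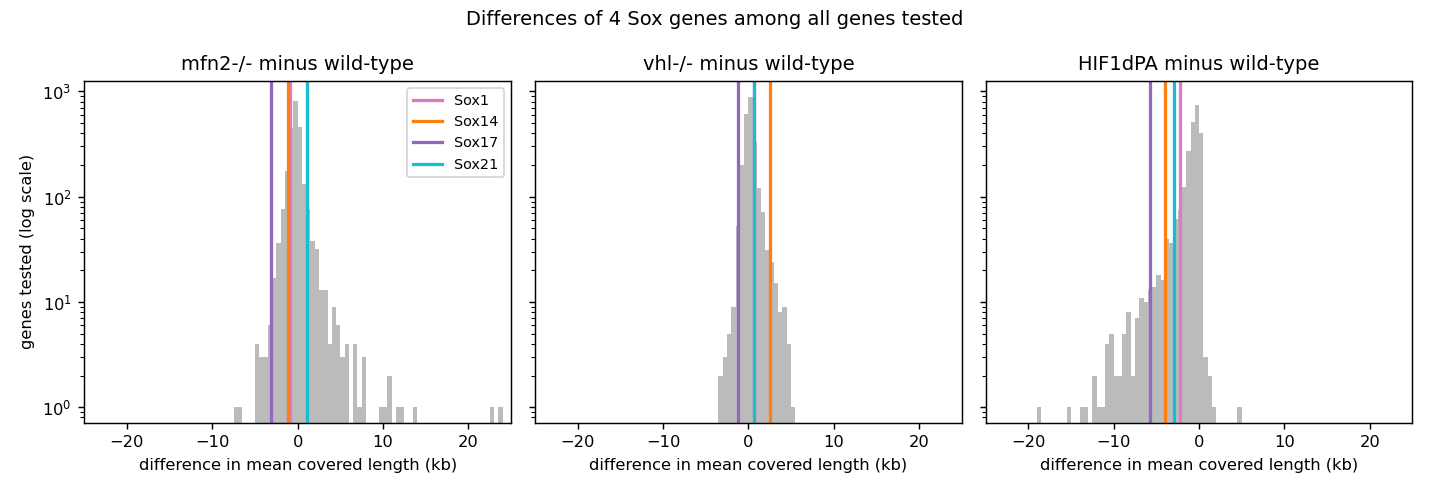
Difference from wild-type in mean covered length (kb) over the 2394 genes tested, shown as a histogram with a log count axis for mfn2-/-, vhl-/- and HIF1dPA, with lines at Sox1, Sox14, Sox17 and Sox21. In HIF1dPA the whole histogram leans to negative values and the 4 lines lie within it.

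The Sox genes in HIF1dPA were therefore read against the length of the lists. Of the 10 genes, 4.33 ± 0.577 had a peak per wild-type list, 4.33 ± 0.577 per mfn2-/- list, 4.67 ± 1.15 per vhl-/- list and 1.67 ± 0.577 per HIF1dPA list (SD, n = 3 each). Per 1000 peaks, the Sox genes held 4.69 ± 1.16, 3.25 ± 1.01, 4.04 ± 0.945 and 4.03 ± 1.97 peaks in that order. Their share of all covered bases was 0.519% ± 0.0188, 0.438% ± 0.123, 0.522% ± 0.158 and 0.475% ± 0.210. The HIF1dPA shares overlapped those of every other genotype.

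When the 482 strongest peaks were kept in each library, 2.33 ± 1.15 of the 10 genes had a peak in wild-type and in mfn2-/-, 2.00 ± 1.00 in vhl-/- and 1.67 ± 0.577 in HIF1dPA. Sox14 then had a mean of 363 bp more in HIF1dPA than in wild-type, the opposite direction, which rested on a single peak of 1090 bp in HIF1dPA replicate 3. Its values were 0 bp in the other 2 HIF1dPA libraries and in all 3 wild-type libraries, where its strongest peaks stood at 577, 1085 and 562. No Sox gene was separate from wild-type in any mutant under that setting. Whether the shorter HIF1dPA lists reflect depth was not tested, since no read totals are given.

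**Figure D5:**
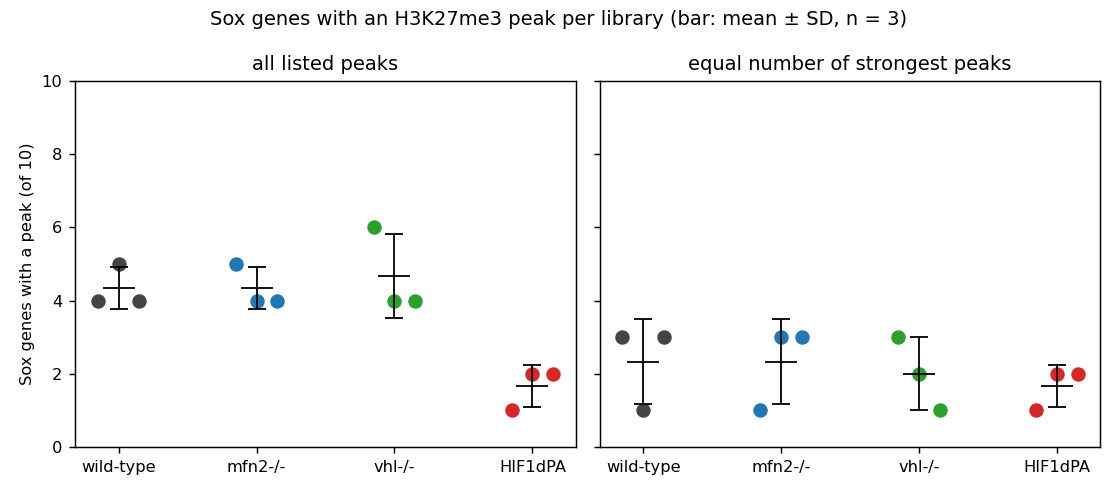
Number of the 10 Sox genes with an H3K27me3 peak in each library, with all listed peaks on the left and the 482 strongest peaks of each library on the right, and bars for the mean ± SD of 3 libraries. The HIF1dPA points lie below the other genotypes on the left and overlap them on the right.

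The other 10 Sox family genes gave peaks less evenly. Sox11, a SOXC factor of immature neurons, had a peak in 11 lists. Its covered length averaged 1916 ± 583 bp (wild-type), 1048 ± 584 bp (mfn2-/-), 1751 ± 385 bp (vhl-/-) and 666 ± 626 bp (HIF1dPA), with an adjusted p of 0.208 in the exact permutation test. Sox5, a SOXD factor that works with Sox9 in cartilage, had covered lengths of 1365, 1234 and 654 bp in the 3 wild-type lists and no peak in the 9 mutant lists. It passed the filter of 3 lists only through wild-type, so no test is given. Sox3 and Sox30 had peaks in 3 and 2 lists, Sox6 in 1, and Sox4, Sox12, Sox13, Sox15 and Sry in 0.

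Known partners and targets of the SOX groups were examined as lists, and none of their genes was called across genotypes. Of 10 SOXB partners and targets, 7 had a peak and 5 were tested, of which 4 lay below wild-type in HIF1dPA, as did 28.9% of all genes tested and 60.7% of those with a peak in at least 6 lists, and 0 differed without overlap in mfn2-/- or vhl-/-. Among them Pax6, an eye and forebrain regulator, averaged 9676 ± 3815 bp (wild-type), 9678 ± 3330 bp (mfn2-/-), 12527 ± 3072 bp (vhl-/-) and 1007 ± 349 bp (HIF1dPA). Pou3f2, a neural POU factor, kept 11801 ± 570 bp in mfn2-/- compared with 11154 ± 2333 bp in wild-type.

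Of 14 SOXE partners and targets, 8 had a peak and 6 were tested, with 5 below wild-type in HIF1dPA (28.9% of all genes). Ednrb, the endothelin receptor of neural crest cells, had a peak in the 3 wild-type lists (861 ± 175 bp), in no mfn2-/- or vhl-/- list and in 1 HIF1dPA list. Ednrb is 1 of those 5 genes but passed the filter of 3 lists only through wild-type. Its separation from the mutants is therefore not read as a result. Of all genes tested, 10.1% were lower without overlap in mfn2-/- and 2.42% in vhl-/-. Of 10 SOXF partners and targets, 5 had a peak and 4 were tested, all below wild-type in HIF1dPA (28.9% of all genes). Gata4, a heart and endoderm factor, averaged 15052 ± 3267 bp in wild-type and 13738 ± 249 bp in mfn2-/-.

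Of 10 writers and erasers of the mark, Ezh2 and Jarid2 each had a peak in 1 list. The genes whose within-list percentiles over the 12 libraries were closest to those of Sox14 were Msx2, Hand1 and Nr2f2, with mean absolute differences of 6.49, 7.14 and 8.21 percentile points. Each had a peak in 10 lists. In the 12 lists of H3K9me3, a mark of constitutive heterochromatin, none of the 10 Sox genes had a peak.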

How the data were processed

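Chromatin immunoprecipitation was followed by sequencing in 24 libraries, 12 for H3K27me3 and 12 for H3K9me3, and 1 wild-type input was not used here. The submitters' processing notes name BWA 0.7.5, MACS, deepTools 3.5.0 and mm10. The authors called peaks per library, and the deposited lists give each peak's interval, its score (from 50, a p-value of 1e-05), an assigned gene and a feature class (promoters reach 3 kb). The score was used within a list, except that the setting with a score of at least 100 applied 1 cut to all lists. The highest score was 3100 in each wild-type list and 590 to 866 in mfn2-/- lists. It was 684 to 1022 in vhl-/- and 1442 to 1468 in HIF1dPA lists. Whether scores are on a like scale between lists was not tested. Other deposited columns (gene assignments, distances and classes) were read as labels.

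Peaks were joined to genes by symbol. Covered length is the summed width of a gene's peaks, 0 where there was none. Genes with a peak in at least 3 of 12 lists (2394) were tested by exact permutation of the between-genotype sum of squares (369600 arrangements, smallest p 6.49e-05) with Benjamini-Hochberg adjustment over all of them, called at an adjusted p under 0.05. Wild-type was set against 9 mutant libraries two-sided (220 arrangements). The study's legends give 3 mice per group for wild-type and mfn2-/- and 3 biological replicates for vhl-/- and HIF1dPA, and the labels state only replicate numbers. Gene spans and promoters were RefSeq GRCm38.p6. The Sox genes and the lists were chosen with earlier results of these data known. Named list genes were those that met a call rule or had a peak in all 3 libraries of a genotype, up to 4 a list, and some are not reported here. Alternatives were a score of at least 100, the 482 strongest peaks, promoter peaks only, joining within 1000 bp, percentile or presence in place of length, other filters on genes, autosomes only, a replicate block, leaving out HIF1dPA or each library, and, chosen after the data were seen, all peaks within 10 kb and the bases at Sox1 without vhl-/- replicate 2. The scripts were tested on simulated data. Computation was in Python 3.11.15 with pandas 2.3.3 and numpy 2.4.6, and plots were drawn with matplotlib 3.10.9.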

Additional observations from a re-analysis of the deposited data

Results flagged for a closer look

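Sox14 and Sox21 stood on opposite sides of wild-type in different mutants. The mean covered length of Sox14 was 6502 bp longer in vhl-/- than in HIF1dPA, with every vhl-/- library above and every HIF1dPA library below all wild-type libraries. For Sox21 the mean was 3966 bp longer in mfn2-/- than in HIF1dPA, again with every library of each genotype on its own side of wild-type. These differences between mutant effects were not tested, and the HIF1dPA lists held 482 to 501 peaks. In HIF1dPA, 28.9% of all genes tested lay below wild-type without overlap, and 60.7% of those with a peak in at least 6 lists. Above wild-type without overlap were 6.22% of genes in vhl-/- and 9.61% in mfn2-/-, or 1.42% of autosomal genes in mfn2-/-. With the 482 strongest peaks no Sox gene was separate from wild-type in any mutant. With every peak within 10 kb counted, Sox21 in mfn2-/- overlapped wild-type.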

How the results depend on the processing

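Depth is unknown, so a missing peak does not show a missing mark. The labels give replicate numbers only, and whether equal numbers mark libraries handled together is not stated. Deviations from genotype means correlated by -0.0408 to 0.0676 within equal numbers (mean 0.00395, 18 pairs). The mean across unequal numbers, -0.00199, is tied to that value by the subtraction of genotype means and gives no separate comparison. These values cannot decide whether libraries were paired. With the replicate block, the smallest possible p is 0.00174 and 0 genes of 2394 were called. Sox14 was at that smallest p (exact permutation) and gave an adjusted p of 0.179, so its lost call is a limit of the test. For wild-type against 9 mutant libraries, Sox17 had an unadjusted p of 0.0469 under the block (exact permutation), the only Sox gene of the 4 under 0.05.

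The number of Sox genes called across genotypes, 1 of 4, was 0 with a score of at least 100 (43 of 500 genes called), the 482 strongest peaks (1 of 462), percentile (0 of 2394) or presence (0 of 2394) in place of length, a filter of at least 1 list (0 of 6092) and HIF1dPA left out (0 of 2294), compared with 44 of 2394. It was 3 with a filter of at least 6 lists (276 of 1009). Leaving out each library gave 0 to 2. Wild-type against mutants (1 Sox gene) gave 0 with a score of at least 100, promoter peaks only, percentile, presence and peaks within 10 kb, and 0 to 2 leaving out each library. Sox17 below wild-type in mfn2-/- was 0 with a score of at least 100, the strongest peaks, promoters only, percentile and presence, and 1 to 2 genes leaving out each library, with 2 without wild-type replicate 2 or 3 or mfn2-/- replicate 2. Sox21 above it was 0 with those 5 settings, joined peaks and peaks within 10 kb. Sox14 above wild-type in vhl-/- was 0 with the strongest peaks and presence. Presence could not separate wild-type, mfn2-/- and vhl-/- here, since Sox14, Sox17 and Sox21 had a peak in every list of these genotypes. The 4 genes below wild-type in HIF1dPA became 1 with a score of at least 100 and with presence, 2 with percentile and 0 with the strongest peaks, where Sox14 reversed to 363 bp higher through 1 peak in HIF1dPA replicate 3, all other HIF1dPA and wild-type libraries being at 0.

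Sox genes with a peak per library became 3 in wild-type, 2.67 in mfn2-/- and 0 in HIF1dPA with a score of at least 100, 2.33, 2.33 and 2 in wild-type, mfn2-/- and vhl-/- with the strongest peaks, and 0.667 (promoters only) or 2.33 (within 10 kb) in HIF1dPA. Summed base pairs, in the order wild-type, mfn2-/-, vhl-/- and HIF1dPA, were 7066, 6169, 11789 and 0 with a score of at least 100, 9175, 7422, 12727 and 562 for promoters only, and 23910, 20660, 29671 and 2470 within 10 kb. With the strongest peaks they were 6302, 5735 and 7183 in the first 3, and wild-type had 18671 with joined peaks. The cause of these changes was not tested.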
